A study of Saccharomyces cerevisiae with 10 samples.

Results

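The nuclear pore complex genes of budding yeast were followed across 4 strains on 10 microarrays. The set holds the 31 nucleoporin genes listed for this work, each of which was represented by 1 probe set in the platform annotation, out of 5449 named genes and 5716 probe sets in all. The members were chosen by name, with earlier results of these data known. RNA came from 3 strains that each lack a part of THO/TREX, the complex that links transcription to the export of mRNA, and from their wild type W303-1A. The mutants were hpr1∆ (SChY58a, hpr1∆::kanMX4, 3 arrays), sub2∆ (DLY23, sub2∆::HIS3, 2 arrays) and tho2∆ (RK2-6C, tho2∆::KanMX4, 2 arrays), against WT (W303-1A, 3 arrays). HPR1 and THO2 encode THO subunits, and SUB2 encodes the RNA helicase that works with THO. All 4 strains are MATa and carry the alleles trp1-1, ura3-1, ade2-1, can1-100 and his3-11,15, and a mutant allele of LEU2. Cultures were in mid-log growth in liquid YPAD, a rich medium with adenine. Each mutant is a single named strain, so the deletion and anything else particular to that strain cannot be told apart. The labels speak of biological repeats but do not describe the cultures, so p-values measure only the spread between these arrays.

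The nuclear pore complex is the channel through which proteins, mRNA and ribosomal subunits cross the nuclear envelope. It is built of coaxial rings. A membrane ring anchors it in the envelope, an inner ring and 2 outer rings form the scaffold, and nucleoporins with phenylalanine-glycine repeats fill the central channel. Filaments reach into the cytoplasm, where exported mRNA is released from its export factor, and a basket reaches into the nucleus, where mRNA is received before export. Transport receptors called karyopherins carry cargo through the repeats, and the GTPase Ran sets the direction of their travel. Yeast keeps its nuclear envelope closed through mitosis, so new pores are inserted into an intact membrane.

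Each array gave 1 intensity for each probe set, deposited on a linear scale, with array medians from 1346 to 1541. Member means over all arrays lay between 686.6 and 4209.9. Empty cells made up 3220 of the 57160 deposited. They numbered 7 to 12 on each hpr1∆ array, 479 and 811 on the sub2∆ arrays, 717 and 667 on the tho2∆ arrays, and 66, 414 and 38 on the WT arrays. Among the members 23 had all 10 values and 8 had at least 1 empty cell, 20 of 310 cells in all. The deleted genes checked the labels, since HPR1 lay between 188 and 209 on the hpr1∆ arrays against at least 517 in WT, SUB2 at 104 and 54.6 on the sub2∆ arrays against at least 11974 in WT, and THO2 at 322 and 183 on the tho2∆ arrays against at least 2363 in WT. THO2 was also below WT in hpr1∆, at 1308 to 1428, and in sub2∆, at 1257 and 1116, though above its tho2∆ values. Of 6 markers of mating type a, MFA1 and MFA2 lay between 1635 and 13748 on all arrays, while STE2, STE6, BAR1 and AGA2 were bright in hpr1∆ and WT and empty on all 4 sub2∆ and tho2∆ arrays. The 3 markers of the other mating type stayed between 29.75 and 345. Replicates differed most in WT, where the SD of the log2 difference between arrays was 0.29 to 0.47, against 0.08 to 0.16 in hpr1∆, 0.19 in sub2∆ and 0.18 in tho2∆.

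Probe sets of chromosomes II and X stood apart on both sub2∆ arrays, and 5 of the 31 members lie there. The median log2 difference from the WT mean was 0.47 and 0.42 over all probe sets of chromosome II and 0.59 and 0.57 over those of chromosome X. On the other 14 chromosomes the medians of these arrays ran from -0.40 to -0.09. All 16 chromosome medians lay between -0.07 and 0.05 on the hpr1∆ arrays and between -0.18 and 0.01 on the tho2∆ arrays. In sub2∆ against WT, 292 of 474 tested probe sets of chromosomes II and X were called higher (61.6%) and 42 lower (8.86%), against 672 of 4158 higher (16.2%) and 1818 lower (43.7%) on the other chromosomes. Empty cells were also more frequent there, at 26.5% of the sub2∆ cells for these chromosomes against 8.89% for the rest. NUP170 lies on chromosome II, and NUP82, NUP85 and the adjoining genes NSP1 and NUP192 lie on chromosome X. Chromosome copy number was not measured, and its part in these values was not tested. Each result of sub2∆ that rests on these chromosomes is therefore given also after the median of each array and chromosome was subtracted, a setting chosen after seeing the data.

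**Figure D1:**
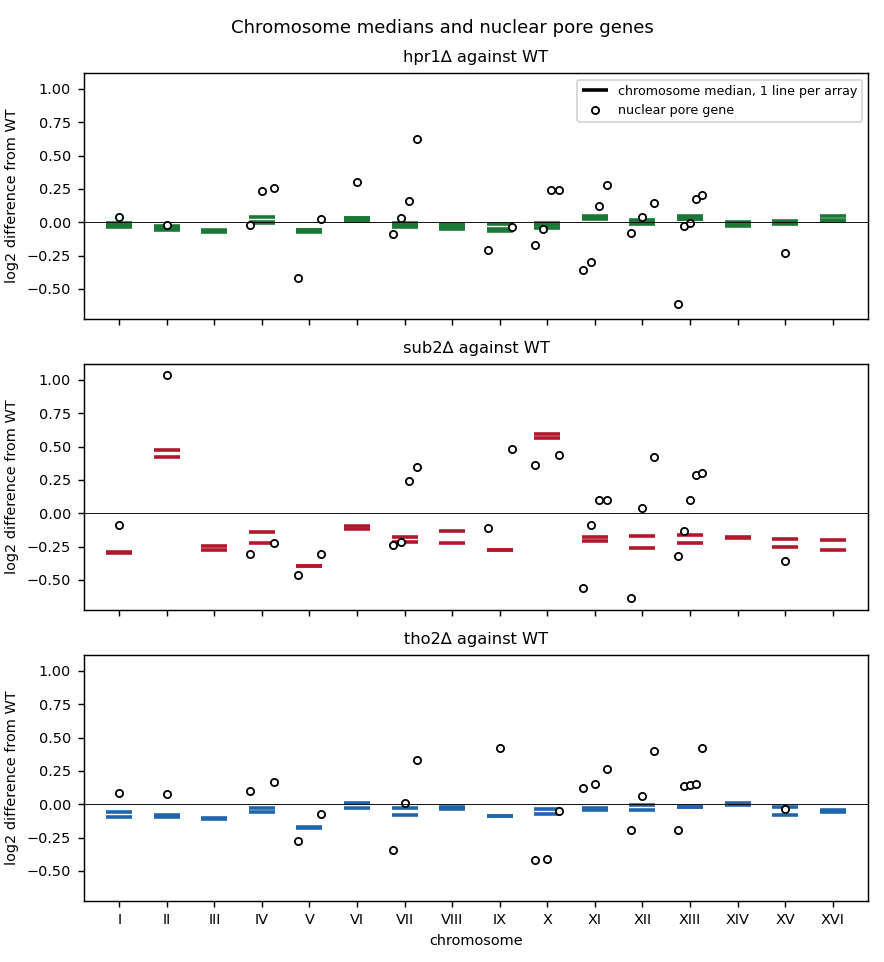
Each panel shows a mutant against WT, with the chromosomes along the horizontal axis and the log2 difference of (intensity + 16) on the vertical axis. Coloured lines are the median over all probe sets of a chromosome, 1 line per array, and open circles are the fitted changes of nuclear pore genes. In sub2∆ the lines of chromosomes II and X lie between 0.42 and 0.59 and all others lie below 0, while the panels of hpr1∆ and tho2∆ show no such pair.

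In each mutant the median size of change of the nuclear pore genes was below that of all probe sets. Intensities were compared as log2(intensity + 16) with limma over all probe sets, errors of log2 changes are standard errors (SE), and a gene was called at a Benjamini-Hochberg adjusted p under 0.05. In hpr1∆ 8 of 31 members were called (25.8%), 5 higher and 3 lower, against 45.6% of all 5663 probe sets tested (22.8% higher, 22.8% lower). In sub2∆ 17 of 27 were called (63.0%), 8 higher and 9 lower, against 61.2% of 4801 (20.8% higher, 40.4% lower). In tho2∆ 8 of 25 were called (32.0%), 4 in each direction, against 57.0% of 4752 (24.4% higher, 32.6% lower). The share called in sub2∆ was thus near that of all probe sets, and the shares in hpr1∆ and tho2∆ were below it. The median size of change, regardless of sign, was 0.17 for the members and 0.28 for all probe sets in hpr1∆, 0.30 and 0.43 in sub2∆, and 0.15 and 0.38 in tho2∆. Changes of at least 1.5-fold were seen for 2 members in hpr1∆, 2 in sub2∆ and 0 in tho2∆, or 6.45%, 7.41% and 0% of those tested, against 22.0%, 37.8% and 32.7% of all probe sets. The fit gave each probe set 1 spread shared by all strains. The median SD of the members on the log2 scale was 0.123 in WT, 0.055 in hpr1∆ and tho2∆ and 0.033 in sub2∆. With only the arrays compared in the fit, the sub2∆ calls of ASM4, GLE2, NDC1, NUP1, NUP188, NUP49, NUP84 and POM152 ended. So did the tho2∆ calls of NDC1 and NUP157, while the hpr1∆ calls stayed the same. Single arrays also weighed on the counts. Without hpr1∆ replicate 2 or replicate 3 there were 5 and 4 calls in hpr1∆, and without sub2∆ replicate 1 or replicate 2 there were 11 and 10 in sub2∆.

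SEH1 and NUP157 were the members called in all 3 mutants, which were compared with the same 3 WT arrays. Of 24 members tested in all 3 mutants, SEH1 was higher and NUP157 lower in each, 8 were called in 2 mutants, 8 in 1 and 6 in none. The same tally was not made over all probe sets, so these counts are not read as particular to the members. ASM4 was higher in hpr1∆ and lower in sub2∆, and NUP192 and NSP1 were higher in sub2∆ and lower in tho2∆. Both NUP192 and NSP1 lie on chromosome X. With chromosome medians subtracted, the sub2∆ change of NUP192 was -0.14 and not called, and that of NSP1 was -0.22 and called lower. Array ranges did not overlap with WT for 14 of 31 members in hpr1∆, where this held for 58.2% of all probe sets. The same was true of 22 of 27 members in sub2∆ (71.1% of all) and of 13 of 25 in tho2∆ (69.1% of all). Since RNA came from whole cultures, a large change in some cells and a small change in all of them cannot be told apart.

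The direction of the small changes in sub2∆ depended on the scaling between arrays. The median change of all probe sets in sub2∆ against WT was -0.16, and -0.03 after array medians were subtracted, when 1321 probe sets were called higher and 1504 lower, against 998 and 1938 before. The members were then called higher in 11 cases and lower in 3, against 8 and 9 before. Quantile normalization gave 9 higher and 5 lower members, where 1201 and 1561 of all probe sets were called. Subtraction of chromosome medians gave 12 and 3, where 1313 and 1371 of all were called, and leaving out chromosomes II and X gave 5 and 9 of 24, where 702 and 1891 were called. The lower calls that held after array medians were subtracted were those of NUP157, NUP100 and NUP2. In tho2∆ the split was 5 higher and 4 lower after array medians were subtracted, 6 and 3 after chromosome medians and 4 and 2 without chromosomes II and X. All probe sets gave 1195 higher and 1487 lower, 1276 and 1358, and 1012 and 1341 under these settings.

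Some members that were not called were called under another setting. In sub2∆ MLP1 was called higher after array medians (0.24) or chromosome medians (0.30) were subtracted and after quantile normalization (0.22), and so were NUP116 (0.24 and 0.30) and NUP57 (0.38 and 0.44) after either subtraction. SEC13 (0.25), NUP133 (0.30) and NUP60 (0.21) were called higher in sub2∆ after chromosome medians were subtracted. In hpr1∆ NUP133 was called higher after array medians were subtracted (0.34) and after quantile normalization (0.35), NUP82 after array medians (0.30) or chromosome medians (0.27) were subtracted, and SEC13 after quantile normalization (0.22). NUP100 was called lower in hpr1∆ after chromosome medians were subtracted (-0.33). In tho2∆ NUP133 was called higher after array medians (0.29) or chromosome medians (0.31) were subtracted, and NUP84 after chromosome medians (0.21). With a covariate for arrays with many empty cells, MLP2 (-0.27), NUP1 (-0.34), NUP133 (0.37) and NUP42 (0.34) were called in hpr1∆, NUP159 (-0.35) in sub2∆, and NUP170 (0.47) and NUP120 (0.36) in tho2∆. Against WT replicate 2 alone, the WT array with a like number of empty cells, NUP53 was -0.30 in sub2∆. In tho2∆ NUP188 was 0.27 and NUP2 was -0.30 in that setting. These values rest on 1 WT array, so no calls are read from them.

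Subtraction of chromosome medians moved further called changes in sub2∆ by more than 1.5 times without ending the call, to 0.76 for MLP2, 0.63 for POM34, 0.54 for SEH1, 0.50 for NUP188, 0.49 for NDC1, -0.36 for NUP100 and -0.42 for NUP2. The covariate for arrays with many empty cells, here in effect a comparison with WT replicate 2, moved NDC1 in sub2∆ to 0.50, still called. It ended the sub2∆ calls of POM152 (-0.20), NUP1 (-0.13) and NUP49 (-0.16) and the tho2∆ call of NUP157 (-0.24).

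**Figure D2:**
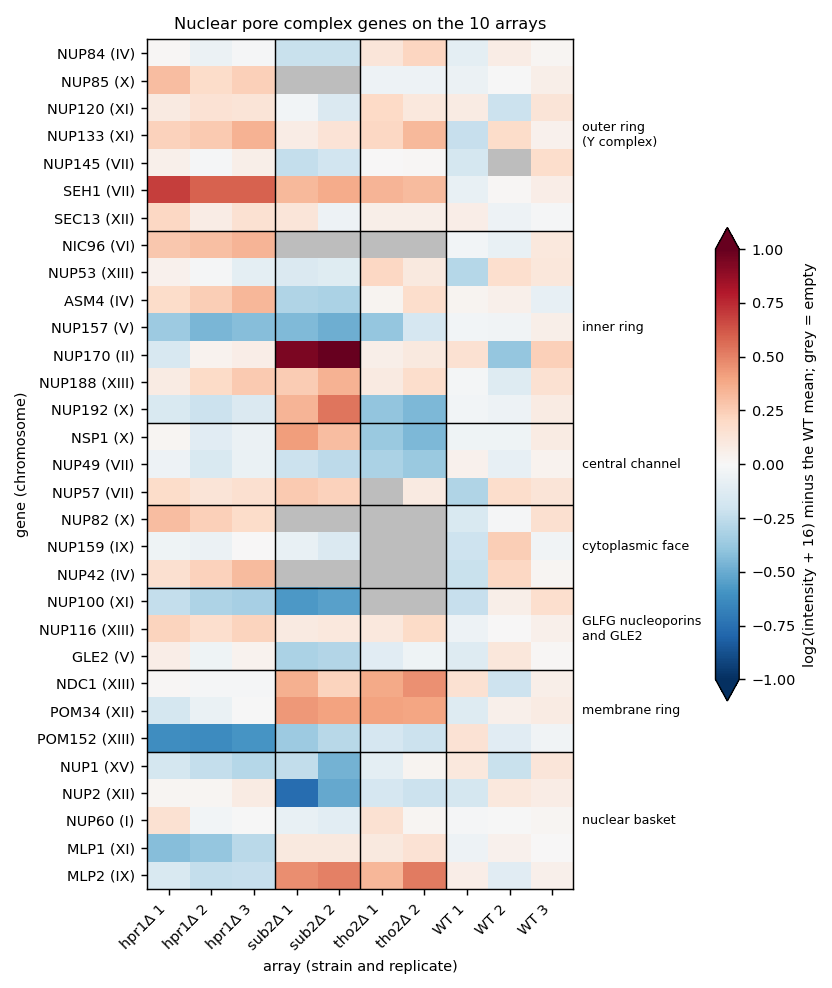
Rows are the 31 nuclear pore genes with their chromosome, in the order of their place in the pore, and columns are the 10 arrays. Colour gives log2(intensity + 16) minus the WT mean of the gene, from blue (lower) to red (higher), with differences beyond 1 in the darkest colour and empty cells in grey. SEH1 is red on all 7 mutant arrays, NUP170 is dark red on the 2 sub2∆ arrays, and the cytoplasmic face genes are grey on both tho2∆ arrays.

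**Figure D3:**
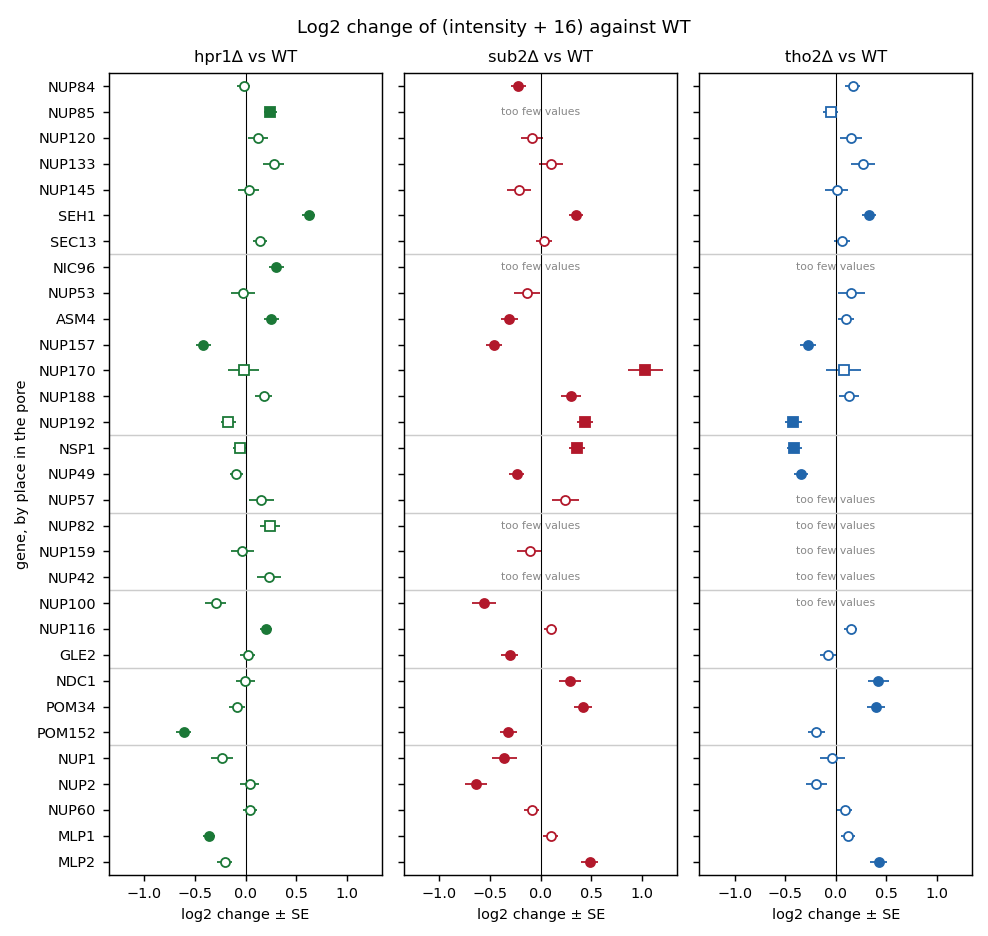
The 3 panels give the log2 change of (intensity + 16) of each nuclear pore gene against WT in hpr1∆, sub2∆ and tho2∆, with bars of 1 SE. Filled symbols are calls at an adjusted p under 0.05, squares are genes of chromosomes II and X, and grey lines part the structural groups. The farthest points are NUP170 at 1.03 in sub2∆, NUP2 at -0.64 in sub2∆, SEH1 at 0.62 in hpr1∆ and POM152 at -0.61 in hpr1∆.

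In the membrane ring 2 genes were higher and 1 was lower. The 3 genes encode Ndc1, which spans the membrane of both pores and spindle pole bodies, and the pore membrane proteins Pom34 and Pom152. POM34 and NDC1 rose in sub2∆ and tho2∆, whereas POM152 fell in hpr1∆ and sub2∆. POM34 (probe set 1770628_at, chromosome XII) read 1542, 1672 and 1738 in hpr1∆, 2368 and 2312 in sub2∆, 2310.4 and 2298 in tho2∆, and 1596, 1807 and 1848 in WT. All 4 sub2∆ and tho2∆ arrays were above every WT and hpr1∆ array, and the log2 change was 0.42 ± 0.085 (adjusted p = 0.00261) in sub2∆, 0.40 ± 0.085 (adjusted p = 0.00405) in tho2∆ and -0.08 ± 0.076 (adjusted p = 0.405) in hpr1∆. NDC1 (1775829_at, chromosome XIII) read 2896, 2851 and 2859 in hpr1∆, 3683 and 3362 in sub2∆, 3747 and 3958 in tho2∆, and 3193, 2485 and 2995 in WT. Its mutant values on the sub2∆ and tho2∆ arrays were again above all WT arrays, by 0.29 ± 0.11 (adjusted p = 0.0406) in sub2∆ and 0.42 ± 0.11 (adjusted p = 0.00897) in tho2∆, while the hpr1∆ change was -0.0032 and was not called. The NDC1 call in sub2∆ was lost without sub2∆ replicate 1 (0.22), sub2∆ replicate 2 (0.36), WT replicate 2 (0.19) or WT replicate 3 (0.32), and that in tho2∆ without tho2∆ replicate 2 (0.38), with adjusted p from 0.00123 to 0.209 over 18 alternatives in sub2∆ and from 0.00045 to 0.0642 over 18 alternatives in tho2∆.

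POM152 (1777700_at, chromosome XIII) read 1946, 1941 and 1993 in hpr1∆, 2336 and 2478 in sub2∆, 2675 and 2579.7 in tho2∆, and 3330.2, 2773 and 2935 in WT. It was the member with the largest decrease in hpr1∆, 1.53-fold lower with a log2 change of -0.61 ± 0.077 (adjusted p = 0.000371), and all hpr1∆ arrays lay below all other arrays. In sub2∆ its change was -0.32 ± 0.086 (adjusted p = 0.0108), also called lower, and in tho2∆ its change of -0.19 ± 0.086 was not called. Subtraction of array medians left -0.18 in sub2∆ and ended that call, as did leaving out sub2∆ replicate 1 (-0.28), with adjusted p from 0.00107 to 0.288 over 18 alternatives.

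Of the 5 basket genes, MLP2 rose in sub2∆ and tho2∆, MLP1 fell in hpr1∆, and NUP1 and NUP2 fell in sub2∆. Mlp1 and Mlp2 are long coiled-coil proteins of the basket filaments, and Mlp1 retains unspliced and faulty mRNA in the nucleus. MLP1 (1778196_at, chromosome XI) read 903, 925 and 1006 in hpr1∆, 1302 and 1302 in sub2∆, 1299.8 and 1346 in tho2∆, and 1174, 1254 and 1221 in WT. All hpr1∆ arrays were below all others, with a log2 change of -0.36 ± 0.063 (adjusted p = 0.00208), while the changes in sub2∆ (0.10 ± 0.071) and tho2∆ (0.12 ± 0.071) were not called, although all 4 arrays lay above WT and the sub2∆ change was called under each of the 3 other scalings. MLP2 (1780062_at, chromosome IX) read 1536, 1449 and 1459.6 in hpr1∆, 2372 and 2435 in sub2∆, 2163 and 2455 in tho2∆, and 1791, 1578 and 1777 in WT. It was higher on every sub2∆ and tho2∆ array than on any WT array, by 0.49 ± 0.085 (adjusted p = 0.00121) and 0.43 ± 0.085 (adjusted p = 0.00284), and its lower values in hpr1∆ missed the threshold at -0.21 ± 0.076 (adjusted p = 0.0538).

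Nup1, Nup2 and Nup60 are the repeat-bearing or anchoring nucleoporins of the basket, and Nup2 also helps recycle the import receptor. NUP2 (1777353_at, chromosome XII) read 4062, 4049.5 and 4235 in hpr1∆, 2354 and 2795 in sub2∆, 3553 and 3447 in tho2∆, and 3538, 4298 and 4211 in WT. It was the member with the largest decrease in sub2∆, 1.56-fold lower with a log2 change of -0.64 ± 0.11 (adjusted p = 0.000843), and both sub2∆ arrays lay below all others. Its changes in hpr1∆ (0.04) and tho2∆ (-0.19) were not called. NUP1 (1772201_at, chromosome XV) read 2054, 1968 and 1897 in hpr1∆, 1957 and 1669 in sub2∆, 2173 and 2365 in tho2∆, and 2494, 1986 and 2523 in WT. It was called in sub2∆, -0.36 ± 0.12 (adjusted p = 0.0292), and its changes in hpr1∆ (-0.23 ± 0.11) and tho2∆ (-0.03 ± 0.12) were not. The sub2∆ call ended without sub2∆ replicate 2 (-0.24), WT replicate 1 (-0.31) or WT replicate 3 (-0.30) and after subtraction of array medians (-0.22), with adjusted p from 0.000717 to 0.347 over 18 alternatives. NUP60 was called in none of the mutants, with log2 changes of 0.04, -0.09 and 0.09 in hpr1∆, sub2∆ and tho2∆. After chromosome medians were subtracted it was called higher in sub2∆ (0.21, adjusted p = 0.0484, with 0.0484 to 0.98 over 18 alternatives).

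**Figure D4:**
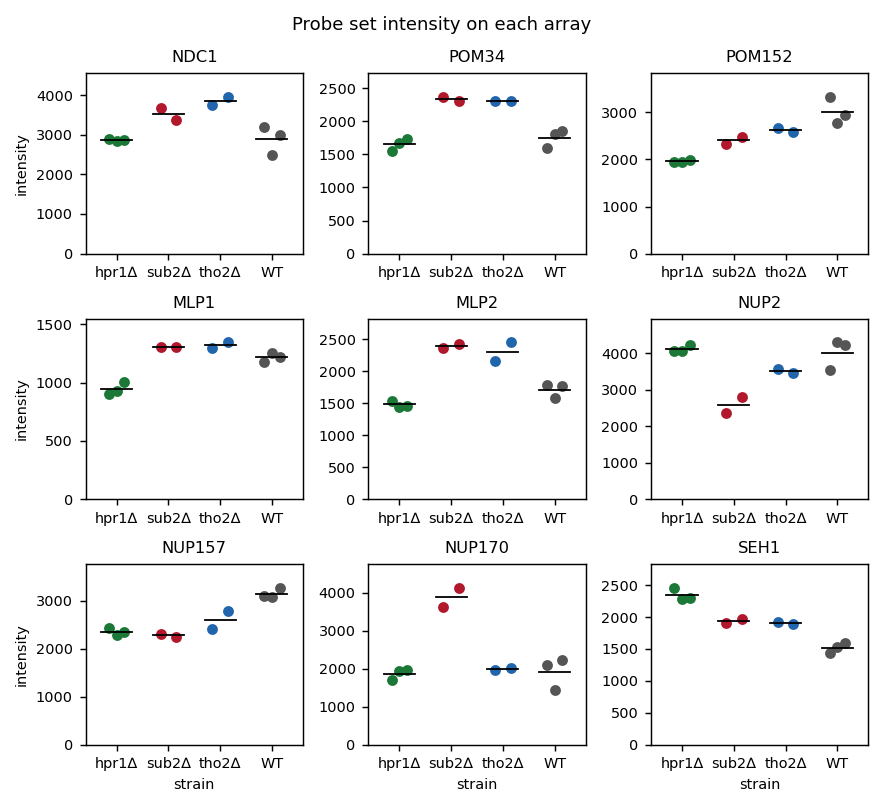
Each panel shows 1 gene, with the strain along the horizontal axis and probe set intensity on a linear vertical axis from 0. Points are arrays and lines are strain means. POM34 and MLP2 are high in sub2∆ and tho2∆, POM152 and MLP1 are lowest in hpr1∆, NUP2 is lowest in sub2∆, NUP170 is high in sub2∆, and SEH1 is above WT in all 3 mutants.

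The outer ring, or Y complex, is the scaffold of Nup84, Nup85, Nup120, Nup133, Nup145, Seh1 and Sec13. SEH1 was the member that rose in every mutant. SEH1 (1774765_at, chromosome VII) read 2462, 2292 and 2293 in hpr1∆, 1904 and 1965 in sub2∆, 1927 and 1896 in tho2∆, and 1438, 1533 and 1587 in WT. No mutant array overlapped with WT, and the log2 change was 0.62 ± 0.063 (adjusted p = 0.000143) in hpr1∆ (1.54-fold), 0.35 ± 0.071 (adjusted p = 0.00271) in sub2∆ and 0.33 ± 0.071 (adjusted p = 0.0041) in tho2∆. Seh1 and Sec13 also serve outside the pore, Sec13 in the coat of secretory vesicles and both in a vacuolar complex that signals nutrient state. SEC13 had log2 changes of 0.14, 0.04 and 0.06 in hpr1∆, sub2∆ and tho2∆, none of them called. After chromosome medians were subtracted it was 0.25 in sub2∆ and called.

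NUP85 (1779533_at, chromosome X) read 2614, 2398 and 2489 in hpr1∆, 2033 and 2036 in tho2∆, and 2030.1, 2101 and 2200.3 in WT, with the cells of both sub2∆ arrays empty. Its hpr1∆ arrays were all above WT, 0.24 ± 0.065 (adjusted p = 0.0181), and the tho2∆ change was not called (-0.05 ± 0.072). The call in hpr1∆ ended without hpr1∆ replicate 1 (0.21) or replicate 3 (0.25), with adjusted p from 0.00411 to 0.0672 over 17 alternatives. NUP84 (1778308_at, chromosome IV) read 2183, 2074 and 2152 in hpr1∆, 1851 and 1855 in sub2∆, 2351 and 2513 in tho2∆, and 2025, 2282 and 2196 in WT. It fell in sub2∆, -0.22 ± 0.074 (adjusted p = 0.0276). The change was -0.08 after array medians were subtracted, and without sub2∆ replicate 1 (-0.22), sub2∆ replicate 2 (-0.22), WT replicate 2 (-0.18) or WT replicate 3 (-0.21) the call was lost, with adjusted p from 0.00335 to 0.653 over 18 alternatives. NUP120, NUP133 and NUP145 were not called in any mutant. For NUP133 all hpr1∆ and tho2∆ arrays were above all WT arrays, the changes were 0.28 ± 0.10 (adjusted p = 0.0566) in hpr1∆ and 0.27 ± 0.12 (adjusted p = 0.0787) in tho2∆, and after array medians were subtracted both were called (0.34 and 0.29).

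In the inner ring, the scaffold layer that links the membrane to the channel, NUP157 was lower in all mutants and its paralog NUP170 was higher in sub2∆ than in every other strain. NUP157 (1772186_at, chromosome V) read 2437, 2288 and 2339.7 in hpr1∆, 2316 and 2242 in sub2∆, 2405 and 2797 in tho2∆, and 3093, 3072 and 3274 in WT. All 7 mutant arrays were below the 3 WT arrays, and the log2 change was -0.42 ± 0.072 (adjusted p = 0.00194) in hpr1∆, -0.46 ± 0.081 (adjusted p = 0.00116) in sub2∆ and -0.28 ± 0.081 (adjusted p = 0.0174) in tho2∆. Chromosome V had the lowest chromosome median on the sub2∆ and tho2∆ arrays, and after subtraction of chromosome medians the changes were -0.35 in hpr1∆, still called, and -0.07 and -0.11 in sub2∆ and tho2∆, no longer called. The tho2∆ call also ended without tho2∆ replicate 1 (-0.17), with adjusted p from 0.00133 to 0.283 over 18 alternatives there and from 8.86e-05 to 0.48 over 18 alternatives in sub2∆.

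NUP170 (1772463_at, chromosome II) read 1686, 1926 and 1971 in hpr1∆, 3629 and 4127 in sub2∆, 1961 and 2011 in tho2∆, and 2096, 1432 and 2217 in WT. Both sub2∆ arrays were above every other array, 2.05-fold higher than WT with a log2 change of 1.03 ± 0.17 (adjusted p = 0.000941), the largest among the members in any mutant. With the chromosome median subtracted it was 0.60 and still called, with adjusted p from 5.11e-05 to 0.0189 over 17 alternatives. NUP192 (1774367_at, chromosome X) read 2097, 2000 and 2101 in hpr1∆, 2948 and 3385 in sub2∆, 1769.8 and 1703 in tho2∆, and 2283, 2244 and 2459.5 in WT. It rose in sub2∆, 0.44 ± 0.081 (adjusted p = 0.00156), and fell in tho2∆, -0.42 ± 0.081 (adjusted p = 0.00229), and neither set of arrays overlapped with WT. With chromosome medians subtracted the change in sub2∆ was -0.14 and was not called (adjusted p from 0.000407 to 0.186 over 17 alternatives), whereas that in tho2∆ was -0.36 and was called.

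ASM4, which encodes Nup59, and NIC96, the linker between the inner ring and the channel, were the inner ring genes called higher in hpr1∆. ASM4 (1772260_at, chromosome IV) read 2329, 2435 and 2576 in hpr1∆, 1661 and 1637 in sub2∆, 2082 and 2314 in tho2∆, and 2087, 2124 and 1930.3 in WT. It was 0.26 ± 0.072 (adjusted p = 0.0189) in hpr1∆ and -0.31 ± 0.080 (adjusted p = 0.00931) in sub2∆, with no overlap with WT in either. The hpr1∆ call ended without hpr1∆ replicate 2 (0.26), hpr1∆ replicate 3 (0.22) or WT replicate 3 (0.21), and the sub2∆ call without sub2∆ replicate 2 (-0.30) and after subtraction of array medians (-0.17), with adjusted p from 3.21e-05 to 0.0806 over 19 alternatives in hpr1∆ and from 0.00671 to 0.216 over 18 alternatives in sub2∆. NIC96 (1771675_at, chromosome VI) read 2866, 2937 and 3019 in hpr1∆, and 2335, 2251 and 2554 in WT, with the cells of both sub2∆ and both tho2∆ arrays empty. Its hpr1∆ arrays were all above WT, 0.31 ± 0.074 (adjusted p = 0.0152), a call lost without hpr1∆ replicate 2 (0.31) or replicate 3 (0.29), with adjusted p from 0.000976 to 0.0629 over 18 alternatives. NUP188 was higher in sub2∆ (0.30 ± 0.098, adjusted p = 0.0251) and not called in hpr1∆ (0.18) or tho2∆ (0.13). Its call ended without sub2∆ replicate 1 (0.35), sub2∆ replicate 2 (0.26) or WT replicate 2 (0.24), with adjusted p from 0.00327 to 0.141 over 18 alternatives. NUP53 was not called in any mutant, with log2 changes from -0.13 in sub2∆ to 0.15 in tho2∆.

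Of the 3 genes of the central channel complex, NSP1 and NUP49 fell in tho2∆. Nsp1, Nup49 and Nup57 form the repeat-bearing trimer that lines the channel, and Nsp1 also binds the cytoplasmic face. NSP1 (1771959_at, chromosome X) read 4212, 3847 and 3995 in hpr1∆, 5551 and 5147 in sub2∆, 3215 and 3046 in tho2∆, and 4046, 4047 and 4398 in WT. Both tho2∆ arrays were below and both sub2∆ arrays above all WT arrays, with log2 changes of -0.41 ± 0.077 (adjusted p = 0.00196) in tho2∆ and 0.36 ± 0.077 (adjusted p = 0.00332) in sub2∆. With chromosome medians subtracted the tho2∆ change was -0.35 and the sub2∆ change turned to -0.22, called in the other direction (adjusted p = 0.0301, with 0.000902 to 0.0353 over 17 alternatives).

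NUP49 (1771602_at, chromosome VII) read 2568, 2396 and 2547 in hpr1∆, 2294 and 2221 in sub2∆, 2141 and 2052 in tho2∆, and 2743, 2519 and 2737 in WT. It fell in tho2∆, -0.34 ± 0.071 (adjusted p = 0.00326), and in sub2∆, -0.24 ± 0.071 (adjusted p = 0.0175), and no array of either overlapped with WT. In sub2∆ the change was -0.10 after array medians were subtracted, and the call ended without sub2∆ replicate 1 (-0.26) or replicate 2 (-0.21), with adjusted p from 0.00323 to 0.654 over 18 alternatives. NUP57 had 1 empty tho2∆ cell and was not tested there, and its changes of 0.16 ± 0.12 in hpr1∆ and 0.25 ± 0.14 in sub2∆ were not called. In sub2∆ it was 0.38 after array medians and 0.44 after chromosome medians were subtracted, and called in both settings.

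The cytoplasmic face could be compared fully in hpr1∆ only. Nup82 holds the filaments there, Nup159 docks the helicase Dbp5 that strips export factors from mRNA, and Nup42 binds Gle1, the activator of Dbp5. All 3 genes were empty on both tho2∆ arrays, and NUP82 and NUP42 also on both sub2∆ arrays. In hpr1∆ the log2 changes were 0.24 ± 0.096 (adjusted p = 0.0818) for NUP82, 0.23 ± 0.12 (adjusted p = 0.154) for NUP42 and -0.03 ± 0.11 (adjusted p = 0.836) for NUP159, none of them called. NUP159 in sub2∆ read 3138 and 2981, against 2864, 3910 and 3214 in WT, and was not called (-0.11 ± 0.12). NUP42 was the dimmest member, at 702 to 783 in hpr1∆ and 534 to 725 in WT.

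Nup100 and Nup116 are paralogs with glycine-leucine-phenylalanine-glycine repeats, and Gle2 binds Nup116 and takes part in mRNA export. NUP100 (1779538_at, chromosome XI) read 2125, 2029 and 1989.7 in hpr1∆, 1686 and 1718 in sub2∆, and 2146, 2622 and 2828 in WT, with the cells of both tho2∆ arrays empty. It fell in sub2∆, -0.56 ± 0.12 (adjusted p = 0.0039), where both arrays were below all others, and in hpr1∆ all arrays were below WT with a change at the edge of the threshold, -0.30 ± 0.10 (adjusted p = 0.0504). NUP116 (1777395_at, chromosome XIII) read 3411, 3300.1 and 3411 in hpr1∆, 3125 and 3151 in sub2∆, 3146 and 3339.8 in tho2∆, and 2828, 2932 and 3027 in WT. It rose in hpr1∆, 0.20 ± 0.058 (adjusted p = 0.02), although the call ended without hpr1∆ replicate 1 (0.20), replicate 2 (0.22) or replicate 3 (0.20), with adjusted p from 0.00198 to 0.0752 over 19 alternatives. GLE2 (1777821_at, chromosome V) read 3391, 3146 and 3312 in hpr1∆, 2589 and 2641 in sub2∆, 2989 and 3143 in tho2∆, and 2953, 3503 and 3265 in WT. It fell in sub2∆, -0.30 ± 0.084 (adjusted p = 0.0124). The change was -0.17 after array medians and 0.09 after chromosome medians were subtracted, and the call also ended without sub2∆ replicate 1 (-0.29) or replicate 2 (-0.32), with adjusted p from 0.00118 to 0.336 over 18 alternatives.

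The mutants were also set against each other, in the same fit. Sub2∆ differed from hpr1∆ in 13 of 27 members (8 higher, 5 lower), where 51.6% of 4831 probe sets were called (775 higher and 1718 lower, or 35.6% lower). Tho2∆ differed from hpr1∆ in 10 of 25 (5 higher, 5 lower), where 37.6% of 4781 were called (15.4% higher, 22.3% lower), and without tho2∆ replicate 1 or replicate 2 in 5 and 4. After array medians were subtracted the split in sub2∆ was 8 higher and 3 lower, and after chromosome medians 8 and 2 in sub2∆ and 7 and 4 in tho2∆, with 5 and 5 of 24 in sub2∆ and 5 and 2 of 21 in tho2∆ when chromosomes II and X were left out. All probe sets gave 921 higher and 1341 lower in sub2∆ after array medians, 975 and 979 in sub2∆ and 849 and 874 in tho2∆ after chromosome medians, and 441 and 1687 in sub2∆ and 649 and 927 in tho2∆ without chromosomes II and X. Few cells were empty on the hpr1∆ arrays (7 to 12 each) and many on the sub2∆ and tho2∆ arrays (479 to 811 each). Strain and number of empty cells thus went together in both comparisons. All 3 membrane ring genes and both MLP genes were higher in sub2∆ and in tho2∆ than in hpr1∆. Among these 5 genes MLP2 differed most, by 0.69 ± 0.085 (adjusted p = 0.000337) in sub2∆ and 0.63 ± 0.085 (adjusted p = 0.000897) in tho2∆ against hpr1∆. MLP1 was higher than in hpr1∆ by 0.46 ± 0.071 in sub2∆ and 0.48 ± 0.071 in tho2∆, POM34 by 0.50 ± 0.085 and 0.48 ± 0.085, and POM152 by 0.29 ± 0.086 and 0.42 ± 0.086. For NDC1 the differences were 0.29 ± 0.11 in sub2∆ and 0.42 ± 0.11 in tho2∆. With the covariate for empty cells 6 of the 10 member calls in tho2∆ against hpr1∆ ended, among them that of POM34 (0.41, adjusted p = 0.0716). That covariate was the same on all arrays within each mutant, so its effect came from the WT arrays alone. The ended calls therefore do not show what empty cells did. The NDC1 call in sub2∆ ended after quantile normalization (0.30) and with a block for replicate number. The POM152 call in sub2∆ also ended with that block. Leaving out 1 array ended the NDC1 call in sub2∆ for each array of sub2∆ and hpr1∆ (0.23 to 0.36) and in tho2∆ for each tho2∆ array (0.38 and 0.46), and the POM152 call in sub2∆ without sub2∆ replicate 2 (0.25), hpr1∆ replicate 1 (0.29) or hpr1∆ replicate 2 (0.29).

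Other members separated the strains as well. NUP170, NUP192 and NSP1, on chromosomes II and X, were higher in sub2∆ than in hpr1∆ by 1.05 ± 0.17, 0.61 ± 0.081 and 0.41 ± 0.077, and the NUP170 difference was the largest of the members. After chromosome medians were subtracted these were 0.57, 0.0067 and -0.19, and NUP170 kept its call. SEH1, which was above WT everywhere, was lower in sub2∆ and tho2∆ than in hpr1∆, by -0.28 ± 0.071 (adjusted p = 0.0112) and -0.29 ± 0.071 (adjusted p = 0.0121). Without sub2∆ replicate 1 the first of these differences was -0.26, without tho2∆ replicate 1 or replicate 2 the second was -0.31 and -0.28, and none of these was called. The first was -0.20 after array medians and -0.10 after chromosome medians were subtracted and -0.30 with the covariate for empty cells, and the second -0.32 with that covariate, again not called (adjusted p from 0.00237 to 0.273 over 17 alternatives and from 0.00158 to 0.0871 over 17 alternatives). ASM4 was lower in sub2∆ than in hpr1∆ by -0.56 ± 0.080 (adjusted p = 0.000657) and NUP2 by -0.68 ± 0.11 (adjusted p = 0.00101), and both were called in all alternatives tried, ASM4 at -0.37 after chromosome medians were subtracted. NSP1 was lower in tho2∆ than in hpr1∆, -0.36 ± 0.077 (adjusted p = 0.00726), a call that ended without tho2∆ replicate 2 (-0.32) and with the covariate for empty cells (-0.30), with adjusted p from 0.00153 to 0.121 over 16 alternatives.

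Between sub2∆ and tho2∆, 6 of 24 members differed, 3 higher and 3 lower in sub2∆, where 20.8% of 4498 probe sets were called (8.56% higher, 12.2% lower). The 3 that were higher in sub2∆ lie on chromosomes II and X. They were NUP170 (0.96 ± 0.19, adjusted p = 0.0102), NUP192 (0.86 ± 0.089, adjusted p = 0.000898) and NSP1 (0.77 ± 0.084, adjusted p = 0.000923). On those chromosomes 340 of 460 probe sets were higher in sub2∆ than in tho2∆ (73.9%), against 33 of 3874 on the others (0.852%). NUP2 (-0.45 ± 0.12, adjusted p = 0.0275), ASM4 (-0.41 ± 0.088, adjusted p = 0.0132) and NUP84 (-0.39 ± 0.081, adjusted p = 0.0117) were lower in sub2∆, and after array medians were subtracted the split was 3 higher and 0 lower. That setting moved the median difference of all probe sets to -0.02, against -0.14, and their calls to 445 higher and 179 lower, against 385 and 551. Leaving out sub2∆ replicate 1, sub2∆ replicate 2 or tho2∆ replicate 2 left 3, 3 and 2 calls. NUP170 was then 0.86 without sub2∆ replicate 2, 0.94 without tho2∆ replicate 1 and 0.98 without tho2∆ replicate 2, and not called, whereas NUP192 and NSP1 kept their calls. With chromosome medians subtracted 0 of 24 members and 169 of 4334 probe sets were called by limma, 7 members had an unadjusted p under 0.05, and the changes of the members ran from -0.27 for ASM4 to 0.43 for NUP170.

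Member length and change were set side by side as a description across genes, which share arrays and are not independent. Over the 31 members Pearson's r between gene length in the R64 annotation and the log2 change in hpr1∆ was -0.48, against -0.08 over 5450 named probe sets. Over the 27 members tested in sub2∆ it was 0.22 (-0.04 over all), and over the 25 tested in tho2∆ it was -0.13 (-0.05 over all). The members run from 894 to 5628 base pairs, a longer median (2520) than that of all named genes (1236). Spearman's rho in hpr1∆ was -0.39 over the members and -0.05 over all. Members of like length differed in hpr1∆. Among short ones, SEC13 (894 base pairs), POM34 (900) and SEH1 (1050) changed by 0.14, -0.08 and 0.62. Among long ones, MLP1 (5628) changed by -0.36 and NUP188 (4968) by 0.18.

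Genes that serve the pore without being part of its core were followed as 3 further lists. Of 15 karyopherin genes 6 were called in hpr1∆ (3 higher, 3 lower), 9 in sub2∆ (3 and 6) and 8 in tho2∆ (4 and 4), or 40.0%, 60.0% and 53.3%. Those shares are near the 45.6%, 61.2% and 57.0% of all probe sets. After array medians were subtracted the split in sub2∆ was 6 higher and 6 lower, and without chromosomes II and X 1 higher and 6 lower of 13. KAP123, the main import receptor of ribosomal proteins, fell in all 3 mutants and read 5405, 5447 and 5224 in hpr1∆, 3834 and 3818 in sub2∆, 4512 and 4088 in tho2∆, and 7083, 7208 and 7119 in WT. Its log2 change was -0.41 ± 0.060 (adjusted p = 0.000775) in hpr1∆, -0.90 ± 0.067 (adjusted p = 1.2e-05) in sub2∆ and -0.73 ± 0.067 (adjusted p = 4.2e-05) in tho2∆, and no mutant array overlapped with WT. After chromosome medians were subtracted the sub2∆ change was -0.50, still called. KAP95, the importin beta of yeast, changed by -0.79 ± 0.080 in sub2∆ and -0.57 ± 0.080 in tho2∆, and KAP120, an import receptor, by -0.63 ± 0.091 and -0.68 ± 0.091, all called lower. PSE1, which imports ribosomal and other proteins, changed by -0.26 ± 0.067 in hpr1∆ and -0.44 ± 0.075 in sub2∆, both called. After chromosome medians were subtracted KAP120 was -0.40 and PSE1 -0.24 in sub2∆, still called.

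NMD5 and KAP104, import receptors whose genes lie on chromosomes X and II, rose in sub2∆. NMD5 read 1332, 1389 and 1335 in hpr1∆, 3149.5 and 3199 in sub2∆, 2063 and 1772 in tho2∆, and 1682, 1996 and 1799 in WT. It was 0.80 ± 0.094 (adjusted p = 0.000118) in sub2∆ and -0.43 ± 0.084 (adjusted p = 0.00363) in hpr1∆, and 0.22 in sub2∆ after chromosome medians were subtracted, no longer called. KAP104, the receptor of mRNA-binding proteins, was 0.78 ± 0.075 (adjusted p = 4.15e-05) in sub2∆ and 0.34 after that subtraction, still called.

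Of 9 Ran cycle genes 3 were called higher and 0 lower in hpr1∆, where 22.8% of all probe sets were higher and 22.8% lower. In sub2∆ 3 were higher and 2 lower of 7 tested, where 20.8% and 40.4% of all were, and in tho2∆ 3 and 2 of 8, where 24.4% and 32.6% were. After array medians were subtracted these were 6 and 0 in hpr1∆, where 1522 of all probe sets were higher and 1096 lower, and 3 and 1 in sub2∆. The 3 that rose were the same in each mutant: YRB30 and YRB2, which encode Ran-binding proteins, and GSP2, the minor of the Ran genes. YRB30 read 1669.6, 1656 and 1782 in hpr1∆, 2385 and 2623 in sub2∆, 2843 and 3300.4 in tho2∆, and 934, 914 and 875 in WT. All mutant arrays were far above WT, with log2 changes of 0.90 ± 0.077 (adjusted p = 6.64e-05) in hpr1∆, 1.45 ± 0.086 (adjusted p = 4.95e-06) in sub2∆ and 1.74 ± 0.086 (adjusted p = 4.81e-06) in tho2∆. GSP2 rose by 1.18 ± 0.13, 0.64 ± 0.14 and 0.63 ± 0.14 in hpr1∆, sub2∆ and tho2∆, and YRB2, which acts in export, by 0.61 ± 0.067, 0.45 ± 0.075 and 0.84 ± 0.075. RNA1, the GTPase-activating protein of Ran, fell in sub2∆ (-0.41 ± 0.070) and tho2∆ (-0.39 ± 0.070). In sub2∆ it was -0.27 after array medians and -0.21 after chromosome medians were subtracted, and YRB2 was 0.73 after chromosome medians, all still called. With the covariate for empty cells, in effect a comparison with WT replicate 2, GSP2 was 0.37 in sub2∆ and 0.37 in tho2∆. Both just missed the threshold and were not called.

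Of 15 genes for pore assembly and partners at the nuclear envelope, 3 were called higher and 3 lower in hpr1∆, 4 and 4 of 14 in sub2∆, and 4 and 3 of 13 in tho2∆. In all 40.0%, 57.1% and 53.8% were called, near the 45.6%, 61.2% and 57.0% of all probe sets. The split was 3 and 1 in hpr1∆ after array medians were subtracted, and 2 and 4 of 13 in sub2∆ without chromosomes II and X. The largest change of all lists was in CHM7, which encodes a protein related to the membrane-cutting ESCRT-III complex that acts where pores are defective. CHM7 (1778824_at, chromosome X) read 1348, 1367 and 1513 in hpr1∆, 5562 and 5330.4 in sub2∆, 2894 and 3455 in tho2∆, and 339, 427 and 385 in WT. It rose 3.58-fold in hpr1∆, 13.7-fold in sub2∆ and 7.98-fold in tho2∆, with log2 changes of 1.84 ± 0.10 (adjusted p = 9.47e-06), 3.78 ± 0.11 (adjusted p = 5.28e-07) and 3.00 ± 0.11 (adjusted p = 1.51e-06), and it was 3.20 in sub2∆ after chromosome medians were subtracted. SNF7, the main ESCRT-III subunit, rose by 0.45 ± 0.094, 0.39 ± 0.11 and 0.54 ± 0.11 in hpr1∆, sub2∆ and tho2∆. Against WT replicate 2 alone, the WT array with a like number of empty cells, the sub2∆ change of SNF7 was 0.23 and was not called, and it was 0.60 and called after chromosome medians were subtracted.

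CDC31, a centrin of the spindle pole body and of the TREX-2 export complex at the pore, read 2351, 2479 and 2729.5 in hpr1∆, 2951 and 2933 in sub2∆, 3622 and 3880.1 in tho2∆, and 1691, 1719.8 and 1710.1 in WT. It rose by 0.55 ± 0.069 (adjusted p = 0.000372) in hpr1∆, 0.78 ± 0.078 (adjusted p = 5.03e-05) in sub2∆ and 1.13 ± 0.078 (adjusted p = 1.14e-05) in tho2∆, and no array overlapped with WT. GLE1, whose protein activates Dbp5 at the cytoplasmic face, read 1157, 1122 and 1231 in hpr1∆, 845 and 760.0 in sub2∆, 977 and 975 in tho2∆, and 1321, 1498 and 1531 in WT. It fell in each mutant, with log2 changes of -0.30 ± 0.079 (adjusted p = 0.0133) in hpr1∆, -0.84 ± 0.088 (adjusted p = 6.54e-05) in sub2∆ and -0.56 ± 0.088 (adjusted p = 0.00075) in tho2∆. RTN1, a membrane-curving protein of the endoplasmic reticulum that helps pores form, changed by -0.18 ± 0.062, -0.52 ± 0.069 and -0.51 ± 0.069 in hpr1∆, sub2∆ and tho2∆, all called lower, although the hpr1∆ change of -0.13 was not called after array medians were subtracted, and the sub2∆ change was -0.34 after chromosome medians were.

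**Figure D5:**
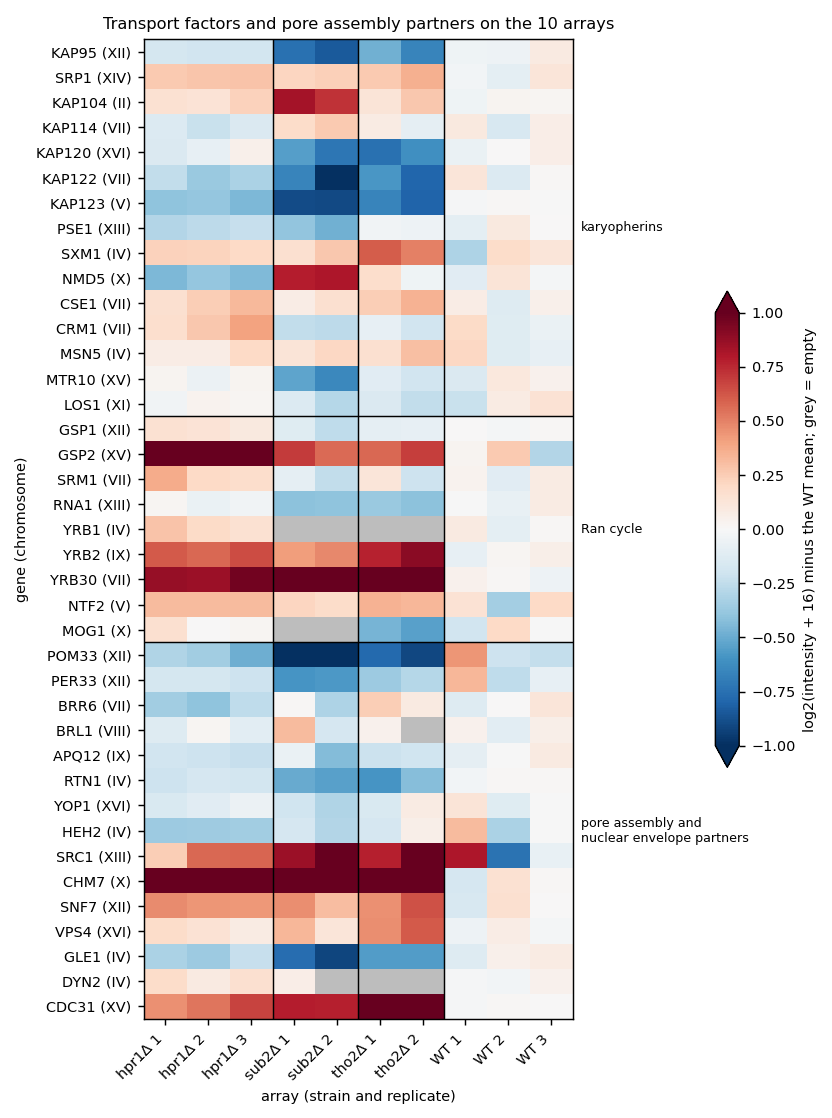
Rows are the karyopherin genes, the Ran cycle genes and the pore assembly and nuclear envelope partners with their chromosome, and columns are the 10 arrays. Colour gives log2(intensity + 16) minus the WT mean of the gene, with differences beyond 1 in the darkest colour and empty cells in grey. CHM7, YRB30, GSP2 and CDC31 are red on all 7 mutant arrays, and KAP123 and GLE1 are blue on all of them.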

How the data were processed

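Total RNA was labelled as biotin cRNA by the 1-cycle protocol and hybridised to single-colour Affymetrix arrays, per the labels' protocols. The authors deposited 1 linear intensity per probe set and array. How they were scaled and summarised, with which software, and why cells are empty is not given in the sources used here. Signal over background was not known, and with 2 or 3 arrays a strain the precision is low. Strains came from the sample titles. The platform annotation named a single gene for 5498 of 5716 probe sets. Symbols, chromosomes, neighbours and gene lengths came from the R64 table. No sequences are shown.

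Intensities were compared as log2(intensity + 16), so folds are those of (intensity + 16). A mean per strain was fitted over all 10 arrays with limma 3.58.1 in R 4.3.3, with empirical Bayes moderation. Probe sets were tested where both strains had at least 2 values, and p-values were adjusted by Benjamini-Hochberg over all probe sets tested and called under 0.05. On simulated data with known changes, 90% to 92% of the changes of 1 on the log2 scale were called in the 3 comparisons with WT. Among the members only NUP170 in sub2∆ reached a change of that size against WT. The simulation gave each probe set the same spread in all strains, unlike these arrays. The share therefore does not describe how many of the smaller changes of the members would be called. Alternatives changed the offset (1 or 64), scaling, dim probe sets (lowest 25% left out), empty cells, the arrays in the fit, weights and the replicate block, and left out each array in turn. A strain left with 1 array was assumed to vary like the others. Replicate numbers were not shown to pair the arrays. Over all pairs of strains, correlations of same-numbered deviations from the strain means ran from -0.21 to 0.11. Those of differently numbered deviations ran from -0.14 to 0.21. Deviations from means of 2 or 3 arrays depend on each other, so these values cannot settle whether arrays were paired.

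All 31 members are named, with up to 3 genes of lowest adjusted p per further list and comparison with WT. The members and lists were chosen with earlier results of these data known.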

Additional observations from a re-analysis of the deposited data

How the results depend on the processing

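Member calls present under each alternative tried, the added ones included, were 4 of 8 in hpr1∆ against WT, 6 of 17 in sub2∆ and 6 of 8 in tho2∆. They numbered 6 of 13 in sub2∆ against hpr1∆, 0 of 6 in sub2∆ against tho2∆ and 3 of 10 in tho2∆ against hpr1∆. Array weights, whose fit stopped before convergence and gave WT replicates 1, 2 and 3 weights of 0.104, 0.217 and 6.50, called 4303 probe sets and 21 members in hpr1∆, 14 members in tho2∆, 1575 probe sets between sub2∆ and tho2∆ and 2836 between tho2∆ and hpr1∆. They also turned NUP145 to a lower call of -0.16 in hpr1∆ and -0.16 in tho2∆ against WT. With only the arrays compared in the fit, 9 members were called in sub2∆ against WT, and 2849 probe sets in tho2∆ against hpr1∆. Quantile normalization and array medians each left 3 member calls between sub2∆ and tho2∆. The covariate for arrays with many empty cells rested on the WT arrays alone. With it, 1104 probe sets and 6 members were called in tho2∆ against hpr1∆. Of these members 4 were among the 10 called without it, and 2, NUP1 and NUP170, were new.

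The replicate block left 6 members in tho2∆ against hpr1∆ and moved no other count of members by over 1.5 times, and the numbers are not shown to pair arrays. Subtracting chromosome medians turned the changes in sub2∆ against WT to -0.14 for NUP192, -0.22 for NSP1, 0.09 for GLE2 and 0.21 for NUP60, and those in sub2∆ against hpr1∆ to 0.29 for NUP157, -0.19 for NSP1 and 0.01 for GLE2. It left 169 probe sets and 0 members between sub2∆ and tho2∆, and leaving out chromosomes II and X left 424 and 3 there. The cause of these shifts was not tested.

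With 1 array left out, member calls ran from 4 to 12 in hpr1∆, 10 to 17 in sub2∆ and 7 to 11 in tho2∆ against WT, from 9 to 11 in sub2∆ against hpr1∆, 2 to 4 in sub2∆ against tho2∆ and 4 to 9 in tho2∆ against hpr1∆. Probe set calls ran from 1915 to 2882, 2477 to 3094 and 2140 to 2899 in hpr1∆, sub2∆ and tho2∆ against WT, and from 1838 to 2039, 369 to 540 and 1057 to 1341 in the comparisons between mutants, in the same order.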
